A study of Mus musculus with 7 samples.

Results

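Fractalkine, the membrane-anchored chemokine encoded by Cx3cl1, was followed in mouse lung carcinoma tumours together with its receptor gene Cx3cr1 and with Adam10 and Adam17, which encode the proteases that cut fractalkine from the cell surface. These are 4 of the 32212 genes in the deposited tables, and all 4 passed the filter on low values. They were chosen by role, as ligand, receptor and sheddases, after the difference between ZQD and control FPKM had been seen in these data, that of Cx3cl1 above all. Their differences between the groups are therefore given as descriptions, with a standard error and no test.

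Fractalkine carries its chemokine domain on a mucin-like stalk at the cell surface, where it can hold CX3CR1-bearing leukocytes, and it becomes a soluble attractant once the stalk is cut. ADAM10 is known mainly for the constitutive cut and ADAM17, also called TACE, for the cut that follows stimulation. Inflamed endothelium, epithelium and neurons are known sources of the ligand. CX3CR1 marks non-classical monocytes, many tissue macrophages and subsets of NK and T cells. An RNA level says nothing of how much ligand sits on the membrane or has been shed.

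The tumours grew from LLC (Lewis lung carcinoma) cells, a mouse lung cancer line that grows in C57BL/6 hosts, placed under the skin of the right axilla of wild-type C57BL/6J mice aged 6 weeks. The control group has 4 libraries from model mice with no treatment, and the ZQD group has 3 libraries from mice given Ze-qi decoction, a herbal preparation, at the high dose of 42.67 g/kg. Groups were formed 3 days after injection with 8 mice each. The protocol dates tumour collection to day 22 and the series text to day 21. Which mice gave the sequenced tumours is not stated, nor whether any mouse gave more than 1 library. A p-value here therefore speaks of the spread among these libraries, which may be technical. The cell type is labelled tumour cell, but the RNA came from whole tumour tissue. Macrophage, endothelial, fibroblast and blood genes were all measured in it. Of 6 epithelial markers, Epcam, Krt8 and Krt7 were under 0.5 FPKM in all 7 libraries. All 6 together summed to 9.10 to 33.3 FPKM in controls and 7.25 to 21.1 in ZQD, so epithelial transcripts were present too. FPKM divide a gene's reads by its length and by all reads of the library, so levels of different genes can be set side by side. In bulk tissue, fewer cells of a type and less RNA per cell cannot be told apart.

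The libraries held 32065288 to 49914394 reads in controls and 34765330 to 38673663 in ZQD, and these ranges overlapped (two-sided exact permutation p = 0.543). Mitochondrially encoded genes took 6.71% ± 1.19 of the reads (SD, n = 4) in controls and 10.2% ± 1.23 (n = 3) in ZQD, with no overlap (two-sided exact permutation p = 0.0286, the smallest that 35 splits allow). Because FPKM are shares of a library, the members were also set on 4 other scales, among them one without mitochondrial genes. Over all 14838 genes tested, the median log2 difference between ZQD and control was -0.04 on the deposited scale and -0.15 on the TPM scale, so small negative values lie near the middle of all genes.

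On the mouse assembly GRCm38 with GENCODE M21 annotation, Cx3cl1 (ENSMUSG00000031778) lies at chr8:94772009-94782427 on the plus strand. Cx3cr1 (ENSMUSG00000052336) lies at chr9:119901616-120069879 on the minus strand, and Adam10 (ENSMUSG00000054693) at chr9:70678997-70780229 on the plus strand. Adam17 (ENSMUSG00000052593) lies at chr12:21323509-21373632 on the minus strand. The exons of Cx3cl1 and Adam10 share no base with another gene. Adam17 shares 311 exon bases (4.35% of its length) with Iah1 on the opposite strand, and Cx3cr1 shares 78 (1.73%) with the antisense gene Gm33858. Use of strand in counting is not given in the sources used, so reads in those shared stretches cannot be assigned, but they are a small part of each gene.

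The stretches below, from the promoters of the ligand and of the more abundant sheddase, are shown because they hold the closest motif matches before each RefSeq start. They come from RefSeq promoters on GRCm38.p6, plus strand, with motif matches in capitals. The Cx3cl1 stretch is the 30 bases before the RefSeq start (chr8:94772150-94772179), with a GC box (GGGCGG) and the letters TATAAA, which end directly at that start and so lie nearer to it than a working TATA box usually does. The Adam10 stretch covers the bases from 125 to 56 before its start (chr9:70678857-70678926), with a pair of overlapping GC boxes and a palindromic CACGTG.
Cx3cl1: cggGGGCGGaggctgccagcccatTATAAA
Adam10: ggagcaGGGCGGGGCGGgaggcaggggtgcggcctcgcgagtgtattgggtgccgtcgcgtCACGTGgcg

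Motifs were searched on both strands of the 250 bases before each start. TATAAA was found in Cx3cl1 alone among the 4 genes and occurs in 12.4% of 32851 promoters. GGGCGG had 1 match in Cx3cl1, 3 in Adam10, 1 in Adam17 and 0 in Cx3cr1, and occurs in 32.7% of promoters. ACGTG, the core read by hypoxia-inducible factors, matched only in Adam10, at CACGTG on both strands, and occurs in 16.6%. The interferon gamma activated site TTCNNNGAA (7.02% of promoters), the AP-1 site TGANTCA (6.75%) and the NF-kB consensus (3.90%) had 0 matches in all 4 windows. The Adam10 and Adam17 windows were rich in GC, at 74.0% and 70.4% with 29 and 23 CpG, against 64.8% and 14 CpG for Cx3cl1 and 53.6% and 4 CpG for Cx3cr1. The median promoter had 52.4% GC and 6 CpG. GENCODE M21 exons of any gene cover 171 of the 250 bases for Cx3cl1, including the printed stretch, all 250 for Cx3cr1, 118 for Adam17 and 0 for Adam10. Which bases count as promoter thus depends on the annotation for 3 of the 4 genes.

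The ligand gene Cx3cl1 was lower in every ZQD library than in every control library. It was measured at 10.6, 9.74, 9.51 and 10.2 FPKM in controls 1 to 4 and at 5.27, 5.20 and 5.71 FPKM in ZQD 1 to 3. The mean was 10.02 ± 0.488 FPKM (SD, n = 4) in controls and 5.40 ± 0.274 (n = 3) in ZQD, so the ZQD mean was 53.9% of the control mean. On the log2(FPKM + 0.5) scale the difference was -0.84 with a standard error of 0.083. Groups that did not overlap, with ZQD lower, were found for 9.84% of the 14838 genes tested. The groups stood apart in the same direction on all 5 scales, and the difference was -0.85 from rebuilt reads by both edgeR and DESeq2. Between 764 and 2078 reads per library lay behind these values.

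Cx3cl1 varied little within either group. Its coefficient of variation was 4.87% in controls and 5.07% in ZQD. The within-group SD on the log2 scale was 0.067, and among 5340 genes of similar level only 4.93% had a smaller one. By size its difference was the 85th most negative of the 14838 genes, so 0.566% of genes had a lower fold change. The gene was chosen with that difference known, so this rank only describes it. The gap between the lowest control, at 9.51 FPKM, and the highest ZQD library, at 5.71 FPKM, was far wider than the range within either group.

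**Figure D1:**
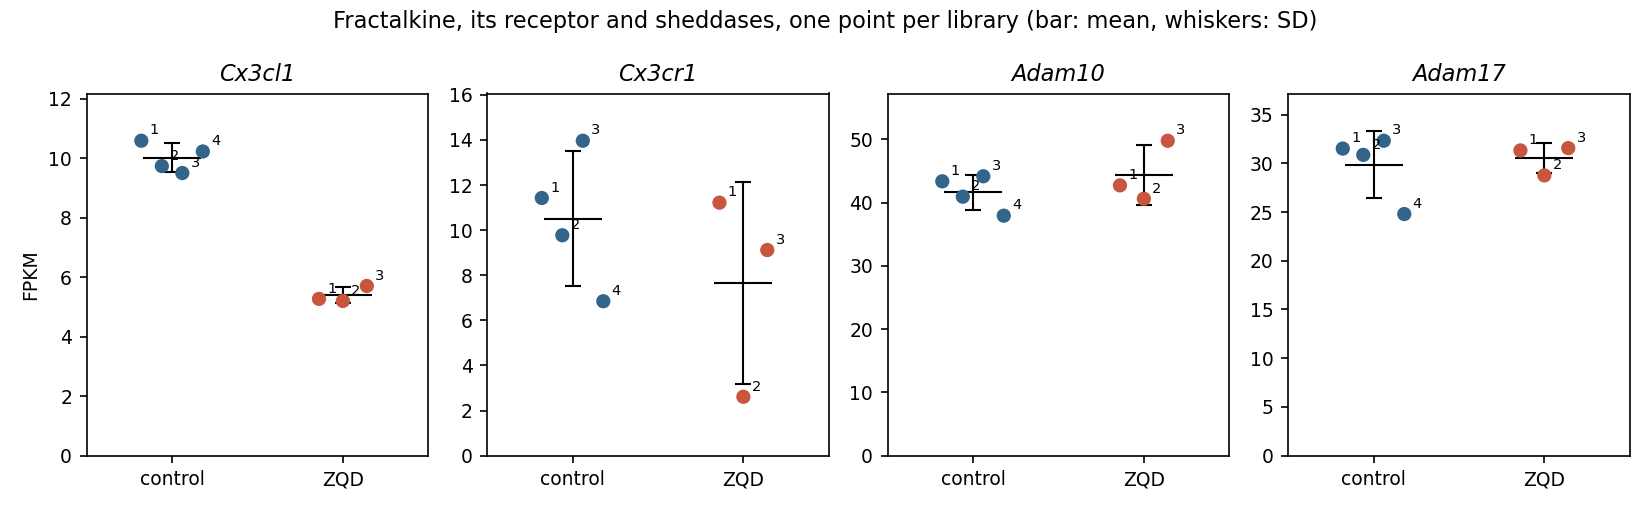
FPKM (vertical axes, starting at 0) of Cx3cl1, Cx3cr1, Adam10 and Adam17 in each control (blue) and ZQD (red) library, with 1 numbered point per library, the mean as a bar and the SD as whiskers (n = 4 and n = 3). Only for Cx3cl1 do the groups stand apart (9.51 to 10.6 against 5.20 to 5.71), and the low ZQD point of Cx3cr1 is ZQD 2 at 2.61.

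The receptor gene Cx3cr1 spread widely within both groups, and the groups overlapped. It was measured at 11.4, 9.77, 13.96 and 6.85 FPKM in controls 1 to 4 and at 11.2, 2.61 and 9.12 FPKM in ZQD 1 to 3. The mean was 10.5 ± 2.98 FPKM for controls and 7.65 ± 4.49 for ZQD, and the log2 difference was -0.60 with a standard error of 0.433. A single library carried that difference: ZQD 2 was the lowest of the 7, with 455 reads, while ZQD 1 and ZQD 3 lay within the range of controls. Without ZQD 2 the ZQD mean was 10.2 FPKM and the log2 difference -0.0089. The highest library had 5.35 times the lowest. Of 5227 genes of similar level, 98.9% had a smaller within-group spread, so ligand and receptor stand at opposite ends of variability in the same libraries.

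Both sheddase genes were more abundant than ligand and receptor and differed little between groups. Adam10 was measured at 43.4, 40.95, 44.2 and 37.9 FPKM in controls 1 to 4 and at 42.7, 40.6 and 49.8 FPKM in ZQD 1 to 3. Its mean was 41.6 ± 2.81 FPKM for controls and 44.4 ± 4.80 for ZQD, and the log2 difference was 0.09 with a standard error of 0.097. ZQD 3 was the highest of all libraries, and the other ZQD libraries lay inside the control range. On the TPM scale, where the median of all genes was -0.15, the difference turned to -0.01. It was positive under every other setting, but on the deposited scale smaller than its standard error.

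Adam17 was measured at 31.5, 30.9, 32.3 and 24.8 FPKM in controls 1 to 4 and at 31.3, 28.8 and 31.6 FPKM in ZQD 1 to 3. Its mean was 29.9 ± 3.44 FPKM for controls and 30.5 ± 1.55 for ZQD, and the log2 difference was 0.04 with a standard error of 0.106. Control 4 was the lowest library, and all 3 ZQD libraries lay inside the control range. Without control 4 the difference became -0.05, and on the TPM scale -0.06. For both sheddases the difference was smaller than its standard error.

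The order of the 4 genes held across libraries at the top and changed at the bottom. Adam10 lay above Adam17, and Adam17 above both Cx3cl1 and Cx3cr1, in 7 of 7 libraries. The ratio of Adam10 to Adam17 was 1.40 ± 0.0894 in controls (1.33 to 1.53) and 1.45 ± 0.112 in ZQD (1.36 to 1.58), so the balance of the proteases overlapped between groups. Cx3cr1 lay above Cx3cl1 in 5 of 7 libraries and below it in control 4 and ZQD 2. The ratio of ligand to receptor was 0.927, 0.997, 0.681 and 1.49 in controls 1 to 4 and 0.470, 1.99 and 0.626 in ZQD 1 to 3. Its lowest and highest values were both in ZQD libraries. ZQD 1 and ZQD 3 lay below every control, and ZQD 2, the library of lowest Cx3cr1, lay above every control. The lower ligand level thus did not give a uniformly lower ligand-to-receptor ratio, with ZQD 2 alone as the exception.

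Sums of marker genes show how the cell types that could hold ligand or receptor varied in the same libraries. The 10 endothelial markers summed to 20.8 to 35.1 FPKM in controls and 21.96 to 42.6 in ZQD, with 9 of 10 higher on average in ZQD and Esam the exception. Relative to that sum, Cx3cl1 was 0.508, 0.348, 0.323 and 0.292 in controls 1 to 4 and 0.240, 0.122 and 0.179 in ZQD 1 to 3, and the groups again did not overlap. The 6 epithelial markers summed to 9.10 to 33.3 FPKM in controls and 7.25 to 21.1 in ZQD, with 0 of 6 higher on average in ZQD. Relative to them Cx3cl1 overlapped between groups, at 0.292 to 1.16 in controls and 0.269 to 0.728 in ZQD. The 8 fibroblast and mural markers ranged from 10.6 to 88.0 FPKM in controls and from 24.3 to 156.6 in ZQD, and the ratio of Cx3cl1 to them overlapped too, at 0.120 to 0.969 against 0.0332 to 0.235. Neuron markers were scarce: Rbfox3, Snap25, Syt1, Stmn2 and Nefl were each under 0.5 FPKM in all libraries. No marker of any list was at 0 in every library. Whether any of these cell types had a part in the level of Cx3cl1 was not tested.

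For the receptor, the 12 macrophage and monocyte markers summed to 755 to 961 FPKM in controls and 879 to 1079 in ZQD, with 11 of 12 higher on average in ZQD. ZQD 2, which had the lowest Cx3cr1, had a macrophage sum of 1040 FPKM, above every control. The ratio of Cx3cr1 to that sum was 0.00251 in ZQD 2 and between 0.00845 and 0.0145 in the other 6 libraries. The 6 non-classical monocyte markers summed to 45.5 to 64.7 FPKM in controls and 42.0 to 64.9 in ZQD, and ZQD 2 was the lowest of all 7. Its fibroblast, endothelial and blood marker sums were the highest of the 7, at 156.6, 42.6 and 408.1 FPKM. The part of these other tissues in its low Cx3cr1 was not tested. NK cell markers summed to 27.4 to 46.7 FPKM in controls and 40.7 to 48.5 in ZQD, with 6 of 7 higher on average in ZQD. T cell markers summed to 13.5 to 23.6 and 19.9 to 28.1, with 7 of 7 higher on average in ZQD. Both sums overlapped between groups.

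**Figure D2:**
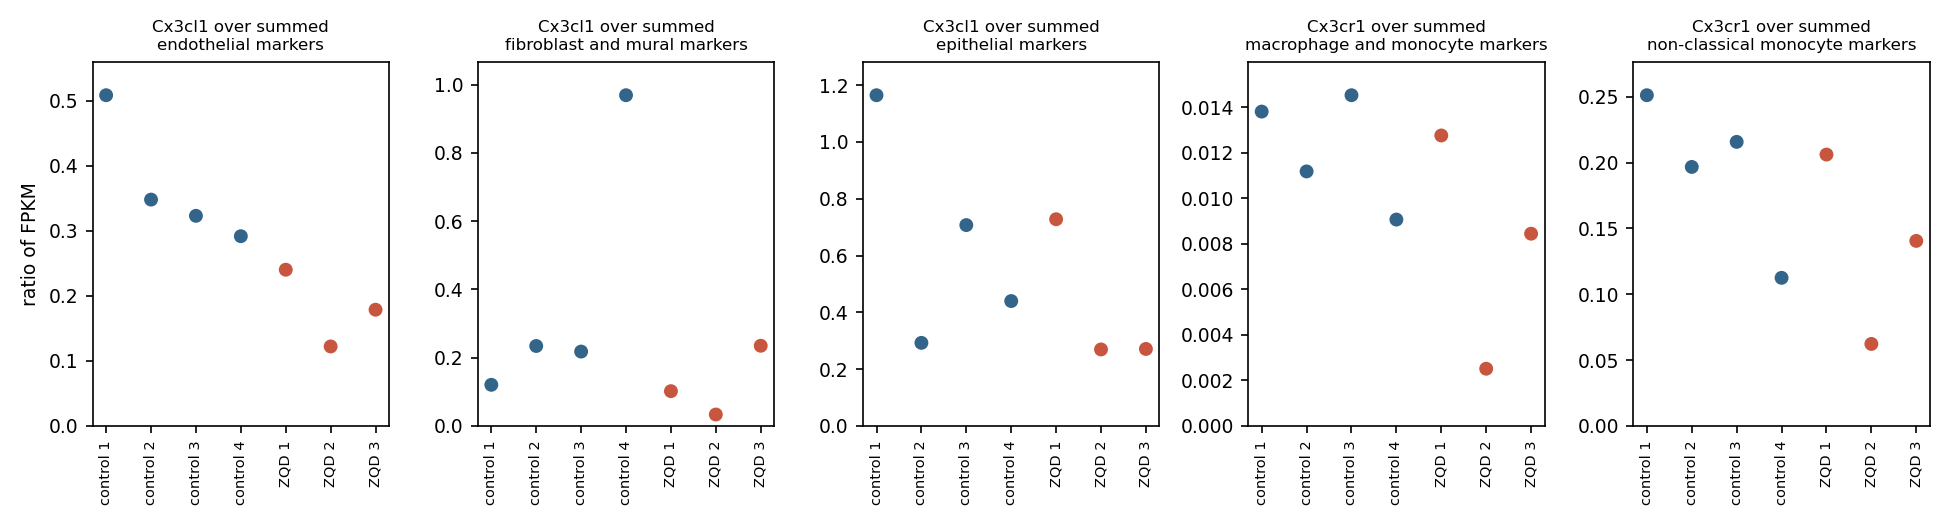
Ratio of FPKM (vertical axes, starting at 0) of Cx3cl1 or Cx3cr1 to the summed FPKM of marker genes of the cell types named above each panel, with 1 point per control (blue) and ZQD (red) library. Only the ratio of Cx3cl1 to endothelial markers separates the groups (0.292 to 0.508 against 0.122 to 0.240), and ZQD 2 is lowest in both Cx3cr1 panels.

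The genes whose profile over the 7 libraries was closest to each member were listed by the root mean square difference of centred log2(FPKM + 0.5), among 11134 genes. For Cx3cl1 they were Irs1 (0.085), an adaptor of the insulin receptor, Pigyl (0.109), P4ha2 (0.115), a collagen prolyl hydroxylase subunit, Nab2 (0.127), a corepressor of EGR factors, and Agrn (0.132), the basement membrane proteoglycan agrin. Irs1 was 3.89 ± 0.193 FPKM in controls and 2.22 ± 0.238 in ZQD, and P4ha2 29.8 ± 0.567 and 19.2 ± 1.26. Nab2 was 18.7 ± 2.88 and 10.1 ± 1.55. All 5 were lower in every ZQD library than in every control, which their choice by likeness to Cx3cl1 brings with it.

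For Cx3cr1 the closest gene was Itgax (0.216), which encodes the integrin chain CD11c of dendritic cells and macrophages. Itgax was 28.5, 24.95, 31.5 and 17.6 FPKM in controls 1 to 4 and 22.0, 8.74 and 17.4 in ZQD 1 to 3. It was followed by Tlr12 (0.233), an endosomal receptor of innate immune cells, Spint1 (0.249), a serine protease inhibitor, Lilra5 (0.277), a leukocyte receptor, and Dnase1l3 (0.311), a secreted nuclease of macrophages and dendritic cells. Each of the 5 was lowest in ZQD 2 of all libraries, as Cx3cr1 was, which their choice by likeness to Cx3cr1 favours. Distances for the sheddases ran from 0.041 (Taok2) to 0.048 (Dcaf1) for Adam10 and from 0.039 (Chfr) to 0.050 (Sike1) for Adam17. Such distances depend on how much a profile varies. The root mean square of the centred profile was 0.417 for Cx3cl1, 0.682 for Cx3cr1, 0.112 for Adam10 and 0.121 for Adam17. The smaller sheddase distances therefore do not show closer likeness.

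**Figure D3:**
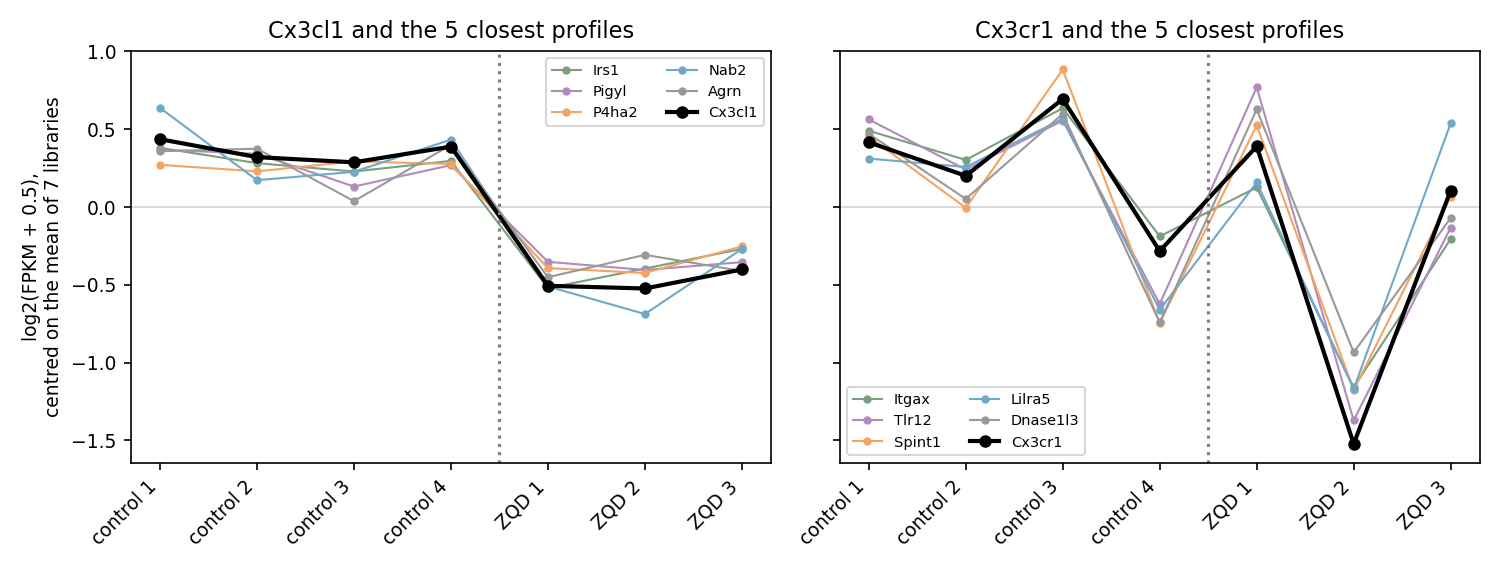
log2(FPKM + 0.5), centred on each gene's mean over the 7 libraries (vertical axis), for Cx3cl1 (left) and Cx3cr1 (right) in black and the 5 genes of closest profile in colour, with control libraries left and ZQD libraries right of the dotted line. The Cx3cl1 set steps down between the groups, while the Cx3cr1 set dips at control 4 and ZQD 2.

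Genes that control the sheddases gave no call. With limma on log2(FPKM + 0.5) and Benjamini-Hochberg adjustment, 0 of 14838 genes passed an adjusted p of 0.05 (0.0%), while 2306 (15.5%) had an unadjusted p under 0.05, 773 of them higher (5.21%) and 1533 lower (10.3%) in ZQD. edgeR also called 0, with 2221 (15.0%) unadjusted, and DESeq2 called 504 of 13099 (3.85%), 288 higher (2.2%) and 216 lower (1.65%) in ZQD, and had 2322 (15.7%) unadjusted. Of 17 sheddase regulators 13 were tested, 1 had an unadjusted p under 0.05 and none had groups that did not overlap on the deposited scale, beside 15.2% of all genes. On the TPM scale 1 stood apart, with ZQD lower. Their median log2 difference was -0.02, beside -0.04 for all genes. Rhbdf1, an inactive rhomboid that brings ADAM17 to the surface, was 11.9 ± 1.74 FPKM in controls and 9.16 ± 1.30 in ZQD (limma adjusted p = 0.268). Its relative Rhbdf2 was 15.4 ± 1.89 and 14.7 ± 1.84. Tspan14, a tetraspanin partner of ADAM10, was 15.2 ± 1.27 and 15.0 ± 2.70, and Furin, which removes the prodomain of both proteases, 12.2 ± 1.45 and 10.2 ± 1.29. Timp3, the tissue inhibitor best known for blocking ADAM17, was 2.61 ± 0.809 and 3.34 ± 0.770.

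Related proteases did not pass limma either, which called 0 of all 14838 genes and so sets no list apart. Of 9 listed, 7 were tested, and Adam19 and Ctss had groups that did not overlap, both higher in ZQD on the deposited scale, where 5.35% of all genes did so. On the TPM scale both overlapped, and 1 other gene of the list stood apart with ZQD lower. Adam9, a metalloprotease near Adam10 in level, was 44.5 ± 3.03 FPKM in controls and 48.5 ± 5.73 in ZQD. Ctss, the macrophage cathepsin that cuts fractalkine in nervous tissue, was 339.9 ± 69.2 and 430.2 ± 13.9 (limma adjusted p = 0.332). Adam8 spread from 30.9 FPKM in ZQD 1 to 76.6 in ZQD 2.

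Genes of other proteins cut by ADAM10 or ADAM17 differed in both directions. None passed limma, as none of all 14838 genes did. Of 33, 28 were tested, and 2 had groups apart with ZQD higher (Icam1 and Mertk) and 4 with ZQD lower (Axl, F11r, Hbegf and Notch2), beside 5.35% and 9.84% of all genes, and their median log2 difference was 0.05. Cxcl16, the only other chemokine made as a transmembrane protein, is the nearest counterpart of fractalkine. It was 26.7, 27.1, 32.6 and 18.1 FPKM in controls 1 to 4 and 34.2, 22.2 and 28.6 in ZQD 1 to 3, and the groups overlapped, unlike those of Cx3cl1. Its receptor gene Cxcr6 was higher in every ZQD library than in every control, at 1.63 ± 0.254 FPKM in controls and 3.01 ± 0.358 in ZQD (DESeq2 adjusted p = 0.00167, limma adjusted p = 0.154). Axl, a receptor kinase shed by both proteases, was 115.1 ± 14.2 and 81.4 ± 5.52 FPKM (DESeq2 adjusted p = 0.0152, limma adjusted p = 0.154). F11r, a junctional adhesion molecule, was 18.1 ± 1.94 and 13.2 ± 1.57 (limma adjusted p = 0.175).

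Of 25 genes for the cytokines known to induce Cx3cl1, their receptors and downstream signalling, NF-kB among it, all were tested. None passed limma, which called no gene of any list. Groups were apart for 1 with ZQD higher (Ifngr1) and 3 with ZQD lower (Jak1, Relb and Tnfaip3), a share close to the 15.2% over all genes, and the median log2 difference was -0.04, the same as for all genes. These counts depend on the scale, at 0 and 6 on the TPM scale and 1 and 1 on the other 3. Tnf was 3.10 ± 0.682 FPKM in controls and 4.17 ± 0.995 in ZQD, Il1b 10.7 ± 4.71 and 16.8 ± 4.48, and Ifng 1.23 ± 0.370 and 1.40 ± 0.529, with overlapping groups for each. The subunit genes Nfkb1 and Rela were 12.0 ± 1.04 and 10.3 ± 0.814, and 37.3 ± 1.43 and 35.5 ± 3.96 FPKM, also overlapping. Relb, a subunit of the non-canonical pathway, was 4.87 ± 0.570 and 3.30 ± 0.375 with no overlap (DESeq2 adjusted p = 0.0289, limma adjusted p = 0.163). Tnfaip3, the feedback inhibitor A20, was 9.21 ± 0.919 and 6.72 ± 1.24, also without overlap (limma adjusted p = 0.211).

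Of 6 genes of adhesion molecules that the same cytokines induce on endothelium, 5 were tested. Icam1 alone had groups apart, 1 of 5 genes beside 15.2% of all genes. The median log2 difference of the 5 was 0.44, beside -0.04 for all genes, with 4 above 0 and 1 below. Icam1 was 2.46, 2.69, 2.78 and 2.20 FPKM in controls 1 to 4 and 3.15, 3.49 and 4.24 in ZQD 1 to 3, higher in each ZQD library (DESeq2 adjusted p = 0.0211, limma adjusted p = 0.193). Vcam1 was 19.7 ± 7.75 FPKM in controls and 19.5 ± 0.261 in ZQD, with ZQD inside the control range.

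Of 19 genes for signalling partners of the receptor and for fractalkine-binding integrins, 18 were tested, with a median log2 difference of -0.09. Groups were apart for 2 higher in ZQD, Gnai2 among them, and 3 lower (Bcl2, Gnb2 and Src), beside 5.35% and 9.84% of all genes. The counts were 0 and 5 on the TPM scale and 4 and 3 on the other 3 scales, so their balance depends on the scale. Gnai2, the inhibitory G protein through which CX3CR1 signals, was 161.3 ± 10.2 FPKM in controls and 184.8 ± 11.1 in ZQD (limma adjusted p = 0.332), and its groups overlapped on the TPM scale. Gnb2, a G protein beta subunit, was 30.2 ± 4.15 and 22.1 ± 1.12 (DESeq2 adjusted p = 0.0442, limma adjusted p = 0.177). The kinase gene Src was 19.1 ± 1.72 and 14.7 ± 1.42 (limma adjusted p = 0.186). Of the integrin chain genes listed, Itgav and Itgb3 were 19.0 ± 2.77 and 16.9 ± 0.974, and 4.08 ± 0.291 and 3.64 ± 1.02 FPKM, both overlapping. Itgb1 was 347.1 ± 31.0 FPKM in controls and 310.4 ± 15.3 in ZQD. Itga4, named after its values were seen, was higher on average in ZQD, at 2.53 ± 0.750 and 3.79 ± 0.664 (limma adjusted p = 0.287). Groups overlapped for both of these as well.

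Set among all chemokine genes, Cx3cl1 stood in the upper part in controls, 11th of 35 by mean FPKM between Ccl9 and Ccl4, and 17th in ZQD between Ccl5 and Cxcl12. In controls it did not differ from Ccl4 (9.80 ± 1.48 FPKM) beyond their spread, and in ZQD not from Ccl5 (6.08 ± 1.29). Of the 34 other chemokine genes 23 were tested, 14 with a positive log2 difference, and the median was 0.33, beside -0.04 for all genes. Groups were apart for 3 with ZQD higher (Cxcl9, Ccl8 and Ccl9) and 1 lower (Cxcl10) on the deposited scale, beside 5.35% and 9.84% of all genes, and for 3 and 2 on the TPM scale. Cxcl9, an interferon-induced ligand of CXCR3, was 91.8 ± 22.7 FPKM in controls and 162.1 ± 19.8 in ZQD (DESeq2 adjusted p = 0.000409, limma adjusted p = 0.154). Ccl8, a monocyte attractant, was 7.62 ± 3.35 and 31.2 ± 22.9 (DESeq2 adjusted p = 0.0251, limma adjusted p = 0.173), with ZQD 2 highest at 57.3. Cxcl10, also interferon-induced and the other chemokine gene with ZQD below every control on the deposited scale, was 62.3 ± 16.4 and 36.2 ± 2.55 (DESeq2 adjusted p = 0.0107, limma adjusted p = 0.179).

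Cx3cr1 ranked 5th of 22 chemokine receptor genes in controls, between Cxcr4 and Ccr2, and 6th in ZQD, between Ccr2 and Cxcr3. Given its spread, its place beside Cxcr4 (12.5 ± 2.66 FPKM in controls) and, in ZQD, beside Ccr2 (7.70 ± 2.21) is not resolved. Of the 21 other receptors, 12 were tested, 8 with a positive log2 difference, and the median was 0.37. Groups were apart for 2 with ZQD higher, Cxcr6 among them, and 0 lower, beside 5.35% and 9.84% of all genes, and for 2 and 1 on the TPM scale.

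**Figure D4:**
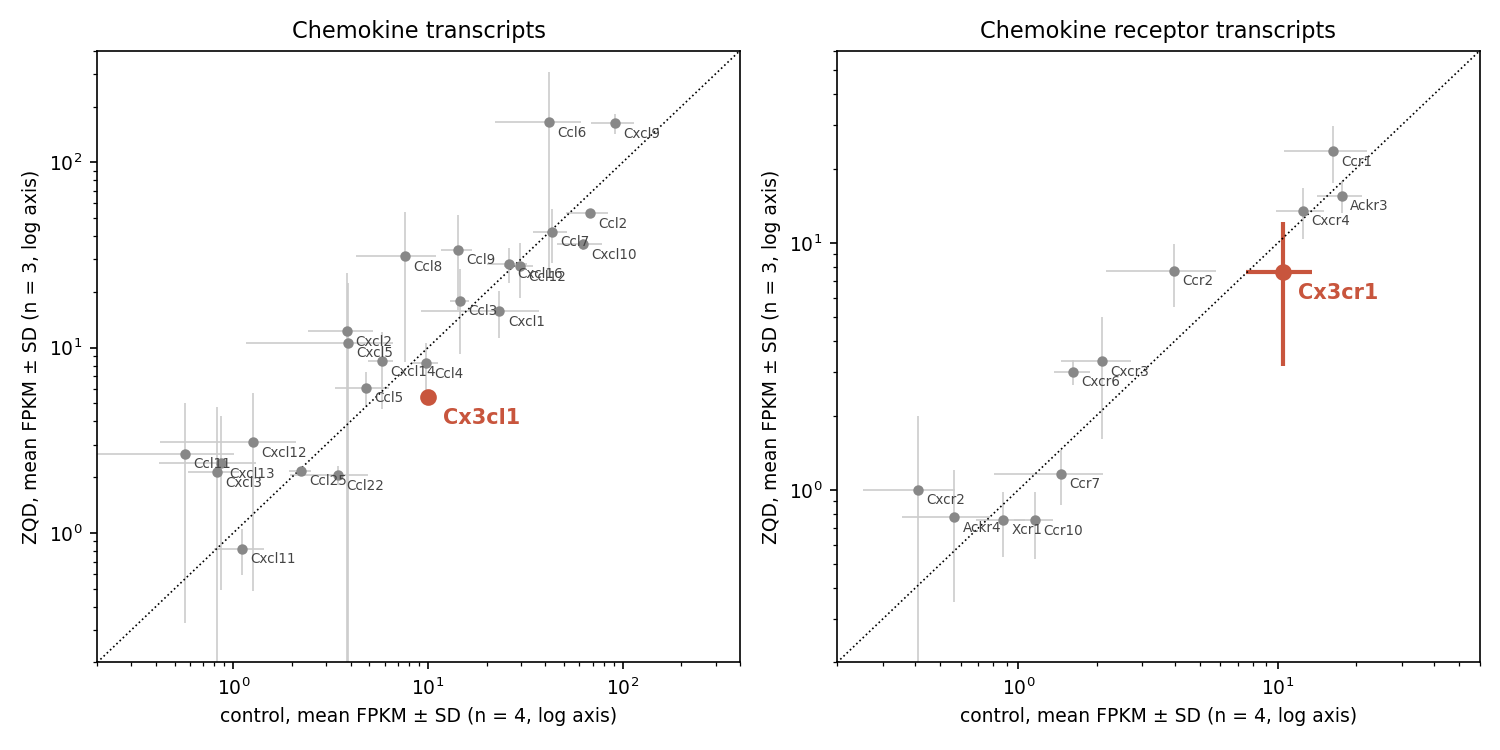
Mean FPKM ± SD in controls (horizontal, n = 4) against ZQD (vertical, n = 3), both on log axes, for tested chemokine genes (left) and chemokine receptor genes (right; Cx3cr1 and 11 of the 12 others tested, 1 not reported here), with Cx3cl1 and Cx3cr1 in red and equal levels on the dotted line. Cx3cl1 lies below the line with whiskers no wider than its point, and Cx3cr1 has whiskers that cross it.

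The choice of settings moved the 4 genes by different amounts. Cx3cl1 stayed between -0.87 and -0.81 with each library left out in turn, and Cx3cr1 ranged from -0.97 to -0.0089. Adam10 ranged from 0.0042 to 0.15 and Adam17 from -0.05 to 0.08. The ligand was negative in each of these fits, which groups without overlap make certain. The size of the receptor's difference rested on ZQD 2.

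**Figure D5:**
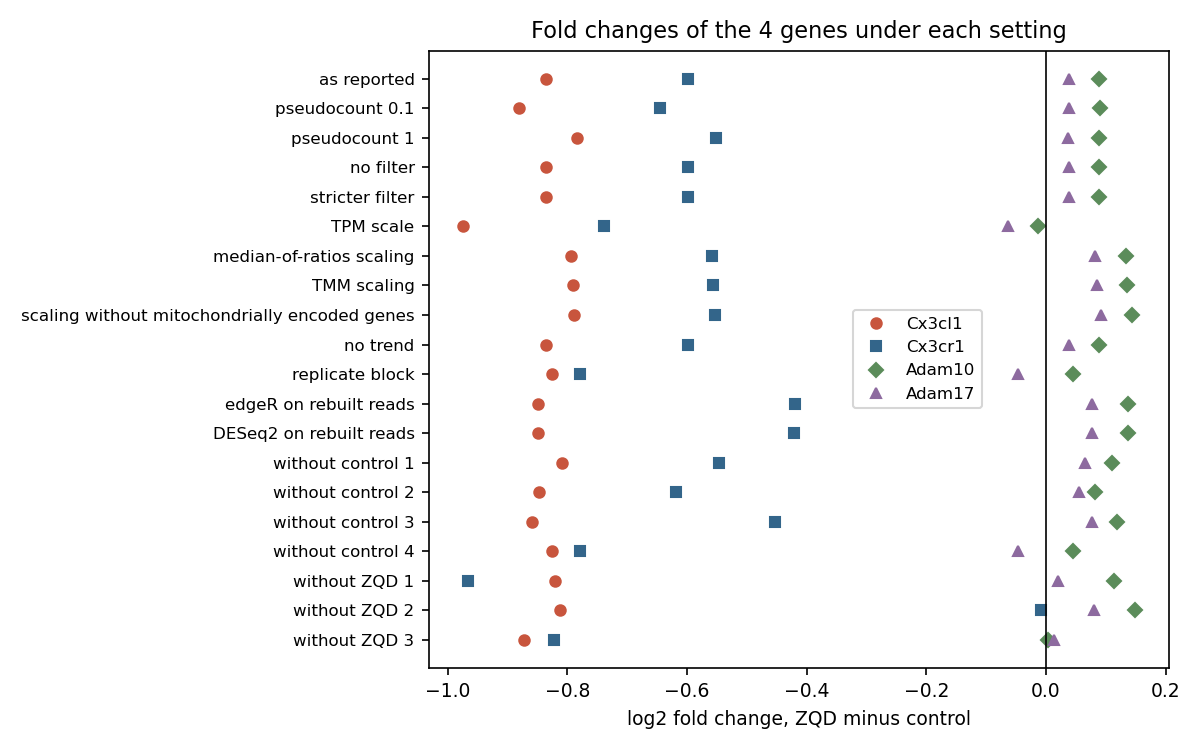
log2 fold change of ZQD against control (horizontal axis) for Cx3cl1, Cx3cr1, Adam10 and Adam17 under each processing setting (rows), with a line at 0. Cx3cl1 stays between -0.97 and -0.78 in every row, Cx3cr1 lies at -0.0089 without ZQD 2, and both sheddases lie near 0.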

How the data were processed

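Gene expression was measured by poly(A) mRNA sequencing in 7 tumour libraries, grouped by sample title and treatment label. FPKM were deposited by the authors for every library, and raw read counts for controls 1 and 2. HISAT2, featureCounts, Subread and DESeq2 were used, per the submitters' processing notes, with version, role, build and annotation not given in the sources used. In the 2 count files, deposited FPKM equal counts divided by gene length and total, which gave a length for 27421 of 32212 genes and whole reads (within 0.05) for all libraries. These lengths equal GENCODE M21 exon unions for 98.2% of 27021 genes. One read in a gene of 1 kb was worth 0.0200 to 0.0312 FPKM. Symbols matched 98.0% of identifiers.

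The test was limma 3.58.1 in R 4.3.3 (empirical Bayes with trend, two-sided, Benjamini-Hochberg) on log2(FPKM + 0.5) for 14838 genes with at least 0.5 FPKM in at least 3 libraries. The pseudocount understates changes of low genes. edgeR 4.0.16 (quasi-likelihood) and DESeq2 1.42.0 ran on rebuilt reads of 14832 genes, and DESeq2 gave no adjusted p for 1733. Other alternatives were pseudocounts of 0.1 and 1, no or a stricter filter, 4 other scalings (TPM, median of ratios, TMM, and without mitochondrial genes), no trend, a replicate block and each library left out. The fits were also tested on simulated data. There limma called 16, edgeR 20 and DESeq2 61 of 14632 genes that were given no difference. Of 100 genes given a log2 difference of 1, limma called 64%, edgeR 76% and DESeq2 88%. Of 100 given a log2 difference of 2, they called 95%, 97% and 97%. The DESeq2 adjusted p printed above are to be read beside these values. Figures were drawn with matplotlib 3.10.9.

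The members and lists were chosen with earlier results of these data known. Genes named are the members, the 3 most abundant and 2 of smallest unadjusted p in each pathway list, 19 genes named by role, the 2 most abundant of each marker list, and the 5 closest profiles of each member (mean of at least 1 FPKM, predicted genes left out). Other genes named beside a count or as neighbours in an order were chosen after their values were seen. Values of a few other list genes are not reported here.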

Additional observations from a re-analysis of the deposited data

Results flagged for a closer look

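In the 4 control libraries, 8 of the 93 genes examined had 1 library far from the other 3 by Dixon's criterion, which chance alone meets in about 1 group in 20. None of Cx3cl1, Cx3cr1, Adam10 and Adam17 was among them. Among chemokine genes, Cxcl9 was highest in control 3 at 125.6 FPKM (77.9 to 84.1 in the others), and Ccl6 in control 2 at 70.8 FPKM (28.9 to 35.9). Cxcr6, the receptor gene for Cxcl16, was lowest in control 4 at 1.25 FPKM (1.71 to 1.78 in the others). The shed adhesion molecule F11r was highest in control 2 at 21.0 FPKM (16.96 to 17.4). Agrn, of a profile close to Cx3cl1, was lowest in control 3 at 17.6 FPKM (22.1 to 22.8), and Chfr, close to Adam17, was lowest in control 4 at 5.51 FPKM (6.67 to 6.82). The muscle genes Acta1 and Mylpf were highest in control 1, at 9.94 FPKM (0.218 to 0.467 in the others) and 6.56 FPKM (1.58 to 2.20).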

How the results depend on the processing

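The main limma test called no gene, so it held no called value whose sign could change. Among the members, differences near 0 changed sign. These were Adam10 on the TPM scale (-0.01), and Adam17 on the TPM scale (-0.06), with the replicate block and without control 4 (-0.05 in both). The number of genes past the threshold was 0 with limma, also with each library left out in turn (0 to 0), 0 with edgeR and 504 with DESeq2, and the cause was not tested. The sources used do not state that the replicate numbers pair the samples. Deviations of same-numbered control and ZQD libraries correlated at 0.25, 0.10 and -0.15, and those of differently numbered ones at -0.30 to 0.26. So few correlations cannot decide whether the numbers pair the samples. With the number as a replicate block 1 gene passed, Marco (log2 difference 2.89, adjusted p = 0.0365, limma), a macrophage scavenger receptor named after its values were seen. Under that block Cx3cl1 was -0.825, Cx3cr1 -0.78, Adam10 0.046 and Adam17 -0.05. Control 4 has no ZQD library of its number, so these values equal those without control 4 and are no separate check. Cx3cl1 moved by more than its within-group SD on the TPM scale (-0.97) and when divided by summed endothelial (-1.05), fibroblast and mural (-1.58) or epithelial markers (-0.60). These ratios, added after seeing the data, also carry the markers' own spread. With 1 library left out, the log2 difference ranged from -0.87 to -0.81 for Cx3cl1, from -0.97 to -0.0089 for Cx3cr1, from 0.0042 to 0.15 for Adam10 and from -0.05 to 0.08 for Adam17. The difference in mitochondrial share was 3.47 percentage points and ranged from 2.96 to 4.17, with exact permutation p of at most 0.1, and fewer libraries raise the smallest p. Among 89 other named genes, 36 changed sign under at least 1 setting and 12 of 1688 values moved by more than their within-group SD. Neither protein nor shedding was measured, and 3 against 4 libraries limit precision.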
